A study of Mus musculus with 6 samples.

Results

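Chemokines are small secreted proteins that guide leukocytes, and their receptors sit on the cells that follow them. The genes described here are the mouse chemokine, chemokine receptor and atypical chemokine receptor genes, chosen by symbol alone (Ccl, Cxcl, Cx3cl, Xcl, Ccr, Cxcr, Cx3cr, Xcr and Ackr followed by a digit). Of 37119 genes on the arrays, 19752 of them with a symbol, 59 met this rule (36 ligands and 23 receptors), read by 70 probes, and each gene was represented by its brightest probe. A gene was tested if it stood well above background on at least 3 of the 5 single-mouse arrays in the Fra-1hep channel, or on at least 3 of the 6 arrays in the wild-type channel. This kept 40 of the 59 genes (24 ligands and 16 receptors), and 19 could not be tested.

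The study asked how hepatocyte-restricted overexpression of Fra-1, the AP-1 subunit encoded by Fosl1, changes liver gene expression. Total liver RNA was hybridised to 6 Agilent 2-colour mouse arrays, all from animals on the C57BL/6J strain aged 26 to 28 weeks with no treatment. On 5 arrays a single Fra-1hep mouse (Cy5) was set against 1 pool of wild-type RNA (Cy3), which the design text describes as 5 chow-fed control mice. The remaining array swapped the dyes between the wild-type pool (now Cy5) and a pool of Fra-1hep mice (Cy3), and its ratio is given here turned to Fra-1hep over wild type. The promoter that drives the transgene, the sex of the mice, and the number of mice in the Fra-1hep pool are not given in the sources used here. Wild type is therefore 1 pooled sample, and its spread between animals is not measured.

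In the Fra-1hep channel 48.5 to 58.9% of all probes were well above background, and in the wild-type channel 45.0 to 50.7%. On all 6 arrays the Cy5 channel had the larger share. On the dye-swapped array this was wild type (50.7%, against 48.5% for Fra-1hep), so these shares do not compare the genotypes. The only Fosl1 probe did not reach the background limit in any channel (0 of 6 arrays each), so the overexpressed gene does not check the labels. All 8 hepatocyte markers were well above background on all 6 arrays in both channels. The arrays of mice 2 and 3 differed no more than repeated spots of one probe (spread 1.03 times that of repeated spots, against 1.85 to 2.34 times for the 9 other pairs of mice). They were averaged and counted as 1 sample, which leaves n = 4 Fra-1hep samples. Each estimate below is the mean of the 4 Fra-1hep samples, averaged in turn with the dye-swapped array, on the log2 scale. The dye-swapped array thus weighs as much as all mice together, and its own error is not estimated. Each estimate is given with limma's moderated standard error (SE), which borrows from the spread of all genes, and the Benjamini-Hochberg adjusted p of limma's moderated test over all 22833 genes tested.

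Chemokines fall into CC, CXC, CX3C and XC classes by the spacing of their first cysteines. CXC chemokines with a glutamate-leucine-arginine motif attract neutrophils through CXCR1 and CXCR2, while CXCL9 and CXCL10 are induced by interferon-gamma and attract T and NK cells through CXCR3. In the liver, chemokines are made by Kupffer cells, sinusoidal endothelium, stellate cells, hepatocytes and resident lymphocytes, and they draw monocytes, neutrophils and lymphocytes into the sinusoids.

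Of the 40 tested genes, 14 were lower and 3 were higher in Fra-1hep liver at an adjusted p under 0.05, and 23 did not pass. Among all genes tested, 12.5% passed, 6.51% with a lower and 5.97% with a higher level, against 35.0% of the tested chemokine and receptor genes lower and 7.5% higher. Over all genes this is 1486 lower and 1364 higher with loess, and 832 lower and 2466 higher where arrays are centred on their median instead, while the chemokine and receptor genes called were 14 lower and 3 higher under both. The median log2 ratio of the 40 genes was -0.16, against 0.01 for all genes tested. Of the 40 genes 18 were below 0 and 5 above 0 on all 6 arrays (12.7% and 14.0% of all genes), and 5 passed with a level at least 2-fold lower and 0 with one at least 2-fold higher (0.526% and 0.666% of all genes). Of the 24 tested ligands 11 were lower and 2 higher, and of the 16 tested receptors 3 were lower and 1 higher. Of the 40 genes, 35 reached the background limit in both channels, and among them 13 were lower and 2 higher. The others passed through 1 channel only: Cxcr2 and Cxcr4 through Fra-1hep, and Cxcl5, Cxcr5 and Xcl1 through wild type. All 17 genes that passed had the same direction on all 6 arrays, which a test on these same arrays favours, so it is no separate support. Among the 14 lower genes mouse 5 was nearest to 0 for 11. Since this is whole liver, fewer cells of a type and less RNA per cell cannot be told apart.

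**Figure D1:**
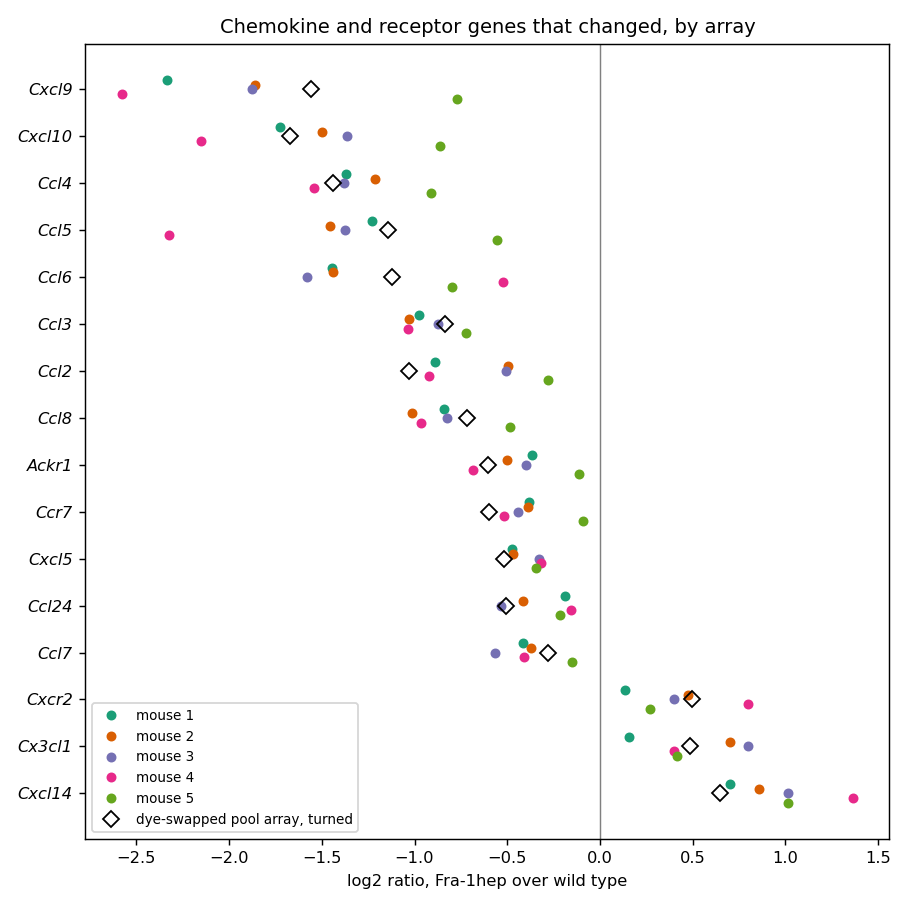
Log2 ratio of Fra-1hep over wild type (x axis) for 16 of the genes that passed the test (y axis), with a filled point for each single-mouse array and an open diamond for the dye-swapped pool array, turned to the same direction. The 13 lower genes plotted lie below 0 and the 3 higher genes above 0 on each of the 6 arrays, and mouse 5 lies nearest to 0 for most of the lower genes.

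Both measured interferon-induced ligands of CXCR3 fell, by about 3-fold. Cxcl9 and Cxcl10 are neighbours, with 1 protein-coding gene between them in the RefSeq gene list. The log2 ratio of Cxcl9 was -2.34, -1.86, -1.88, -2.58 and -0.77 in mice 1 to 5 and -1.56 on the dye-swapped array. All 6 arrays were below 0, and mouse 5 was the one nearest to 0. The estimate for Cxcl9 (NM_008599) was -1.72 (SE 0.29, n = 4, limma adjusted p = 0.00851), a 3.30-fold lower level, and its other probe gave -1.63. The log2 ratio of Cxcl10 was -1.73, -1.50, -1.36, -2.15 and -0.86 in mice 1 to 5 and -1.67 on the dye-swapped array, again with mouse 4 lowest and mouse 5 highest. Cxcl10 (NM_021274) was 3.05-fold lower (log2 -1.61, SE 0.20, n = 4, limma adjusted p = 0.00252). In the authors' processed signals, Cxcl10 ranged from 235 to 656 in the 5 Fra-1hep mice and from 1256 to 1513 in the wild-type channel of the same arrays. The wild-type readings are repeats of 1 pool, so here and below their range holds no spread between animals. With an intensity trend and robust variance, Cxcl9 no longer passed (adjusted p = 0.106). Cxcr3, their receptor on T and NK cells, was well above background on all 6 arrays in both channels and did not pass (-0.06, SE 0.09, adjusted p = 0.748).

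Promoters of 4 ligands are shown because these genes stand at the ends of the range of ratios, and because AP-1, NF-kB and IRF motifs are classic features of chemokine promoters. The sequences are RefSeq windows of GRCm38.p6 around the annotated gene start, printed in the direction of the gene, with matches to the searched motifs in capitals. The motifs searched on both strands were TGANTCA (AP-1, which includes TGACTCA), an NF-kB motif (GGGA, any 2 letters, TTCC), an IRF motif (GAAA, any 2 letters, GAAA) and TTCNNNGAA (STAT). The windows are chr5:92348840-92349139 (minus strand) for Cxcl10, chr5:92328030-92328329 (minus strand) for Cxcl9, chr5:90890995-90891294 (plus strand) for Cxcl1 and chr13:56296502-56296801 (minus strand) for Cxcl14.
Cxcl10: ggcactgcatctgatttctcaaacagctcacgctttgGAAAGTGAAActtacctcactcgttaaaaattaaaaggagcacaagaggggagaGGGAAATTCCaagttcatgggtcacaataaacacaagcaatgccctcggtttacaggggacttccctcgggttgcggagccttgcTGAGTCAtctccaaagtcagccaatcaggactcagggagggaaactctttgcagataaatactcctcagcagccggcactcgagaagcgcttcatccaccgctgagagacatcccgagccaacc
Cxcl9: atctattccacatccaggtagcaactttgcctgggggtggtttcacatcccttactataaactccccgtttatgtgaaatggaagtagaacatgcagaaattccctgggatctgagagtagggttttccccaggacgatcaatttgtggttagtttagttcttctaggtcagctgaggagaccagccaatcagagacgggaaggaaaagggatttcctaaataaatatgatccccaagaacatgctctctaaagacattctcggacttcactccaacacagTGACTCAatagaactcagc
Cxcl1: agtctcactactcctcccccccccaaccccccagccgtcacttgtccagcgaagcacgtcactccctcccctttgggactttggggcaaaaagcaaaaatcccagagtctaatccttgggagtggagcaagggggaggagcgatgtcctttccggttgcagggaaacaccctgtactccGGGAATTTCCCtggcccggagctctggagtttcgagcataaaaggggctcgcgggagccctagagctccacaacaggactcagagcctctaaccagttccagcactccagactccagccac
Cxcl14: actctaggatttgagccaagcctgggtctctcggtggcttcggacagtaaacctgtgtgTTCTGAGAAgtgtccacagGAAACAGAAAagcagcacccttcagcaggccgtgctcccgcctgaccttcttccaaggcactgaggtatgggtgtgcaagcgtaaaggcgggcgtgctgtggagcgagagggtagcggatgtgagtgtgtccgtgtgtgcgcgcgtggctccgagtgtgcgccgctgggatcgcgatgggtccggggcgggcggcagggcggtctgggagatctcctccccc
The Cxcl10 window held an IRF match at bases 38 to 47, an NF-kB match at bases 92 to 101 and an AP-1 match at bases 177 to 183, counted from 1 at the 5′ end. The Cxcl9 window held 1 match, AP-1, at bases 282 to 288. The Cxcl1 window held the NF-kB motif on both strands in overlapping matches, at bases 180 to 189 and 181 to 190. The Cxcl14 window held a STAT match at bases 60 to 68 and an IRF match at bases 79 to 88. Of 32851 promoter windows of this length, 7.81% held TGANTCA, 1.47% the NF-kB motif, 3.44% the IRF motif and 8.30% TTCNNNGAA. Windows were found for 45 of the 59 genes, and among the 14 lower genes for Ackr1, Ccl3, Ccl6, Ccl8, Cxcl9 and Cxcl10. Of these 6 lower genes 2 held TGANTCA, namely Cxcl9 and Cxcl10, and the other windows held no match to any searched motif. Counted by gene, some with more than 1 window, 8 of the 45 (17.8%) held TGANTCA. Besides Cxcl9 and Cxcl10 these were Ccl27a, Ccl28, Ccl9, Ccr1l1, Ccr3 and Ccr4, which did not pass or were not tested. The NF-kB motif was held by 6 of the 45 (13.3%), the IRF motif by 3 (6.67%) and TTCNNNGAA by 4 (8.89%). These are shares of genes, while the shares of all promoters count windows, so the 2 kinds are not directly comparable. A match is a match of letters only, and binding was not measured here.

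The inflammatory CC ligands Ccl3, Ccl4, Ccl5, Ccl6 and Ccl9, which recruit monocytes, macrophages and T cells, fell in 4 of 5 cases. Ccl4 was lower in every mouse, with log2 ratios of -1.37, -1.21, -1.38, -1.54 and -0.91 in mice 1 to 5 and -1.44 on the dye-swapped array. These values lay close together, and the estimate was -1.36 (SE 0.11, n = 4, limma adjusted p = 0.000437), a 2.56-fold lower level. Ccl3, which encodes the related MIP-1 alpha, had log2 ratios of -0.97, -1.03, -0.87, -1.04 and -0.72 in the mice and -0.83 on the dye-swapped array. Its spread was again small (-0.88, SE 0.07, adjusted p = 0.000515). Ccl3 was dim in Fra-1hep liver, past the background limit on 5 of 6 Fra-1hep and 6 of 6 wild-type readings. Its processed signals were 15.8 to 40.4 in the Fra-1hep mice and 96.0 to 132 in wild type on the same arrays. The offset added to each signal, described below, draws the ratios of dim genes towards 0. Evenness between mice therefore cannot be read from the small spread of Ccl3. The same limit holds for the spread and the fold of Ccl4, with processed signals of 62.7 to 126 in the Fra-1hep mice. Ccl5, the RANTES chemokine of T and NK cells, varied more, from -2.32 in mouse 4 and -1.46, -1.37 and -1.23 in mice 2, 3 and 1 to -0.56 in mouse 5, with -1.14 on the dye-swapped array. Its estimate was -1.26 (SE 0.26, adjusted p = 0.0200), and it did not pass with an intensity trend and robust variance (adjusted p = 0.153). Ccl6, a CCR1 ligand made by myeloid cells, was lowest in mice 3, 1 and 2 (-1.58, -1.45 and -1.44) and nearer to 0 in mice 5 and 4 (-0.80 and -0.52). The dye-swapped array read -1.12 for Ccl6, and the estimate was -1.10 (SE 0.18, adjusted p = 0.00801). Mouse 4 was thus the lowest mouse for Ccl5 and the highest for Ccl6. Ccl9, the neighbour of Ccl6 and also a CCR1 ligand, did not pass (-0.16, SE 0.06, adjusted p = 0.156), with mice between -0.23 and 0.04.

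Ccr1, a receptor of these ligands, stayed below the background limit throughout and has no measured ratio. Ccl5, Ccl9, Ccl6, Ccl3 and Ccl4 lie side by side in the RefSeq gene list with 0 protein-coding genes between them, and all but Ccl9 were lower.

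Monocyte chemoattractant proteins fell in 3 of 3 tested cases. Ccl2 (MCP-1), the main ligand of CCR2, had log2 ratios of -0.89, -0.49, -0.51, -0.92 and -0.28 in mice 1 to 5 and -1.03 on the dye-swapped array. Every array was below 0, and the estimate was -0.84 (SE 0.12, n = 4, limma adjusted p = 0.00506). Ccl8, which in the mouse also acts on CCR8, was at -0.84, -1.01, -0.83, -0.96 and -0.49 in the mice and at -0.72 on the dye-swapped array. The estimate for Ccl8 was -0.76 (SE 0.09, adjusted p = 0.00256), with mouse 5 again nearest to 0. Ccl7 (MCP-3) was dim, past the background limit on 3 of 6 Fra-1hep and 6 of 6 wild-type readings. Its log2 ratios were -0.42, -0.37, -0.57, -0.41 and -0.15 in the mice and -0.28 on the dye-swapped array (-0.32, SE 0.07, adjusted p = 0.0296). The call for Ccl7 ended without mouse 1 (adjusted p = 0.0539), without mouse 4 (0.0593) and without mice 2 and 3 together (0.0619). Ccl12, a further CCR2 ligand, was not above background on any array. Ccr2, the receptor that brings monocytes out of the marrow, did not pass (0.11, SE 0.08, adjusted p = 0.471), with mice from -0.18 to 0.28.

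Of the eotaxin-type ligands of CCR3, 1 of 3 could be tested. Ccl24, made by macrophages, was lower (log2 -0.38, SE 0.08, n = 4, limma adjusted p = 0.0166), with -0.19, -0.41, -0.54, -0.16 and -0.21 in mice 1 to 5 and -0.51 on the dye-swapped array. All 6 values were below 0, although mice 1, 4 and 5 were close to it. Ccl11 passed the background limit in 1 Fra-1hep reading, Ccl26 in 0, and Ccr3 in 3 Fra-1hep and 2 wild-type readings.

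**Figure D2:**
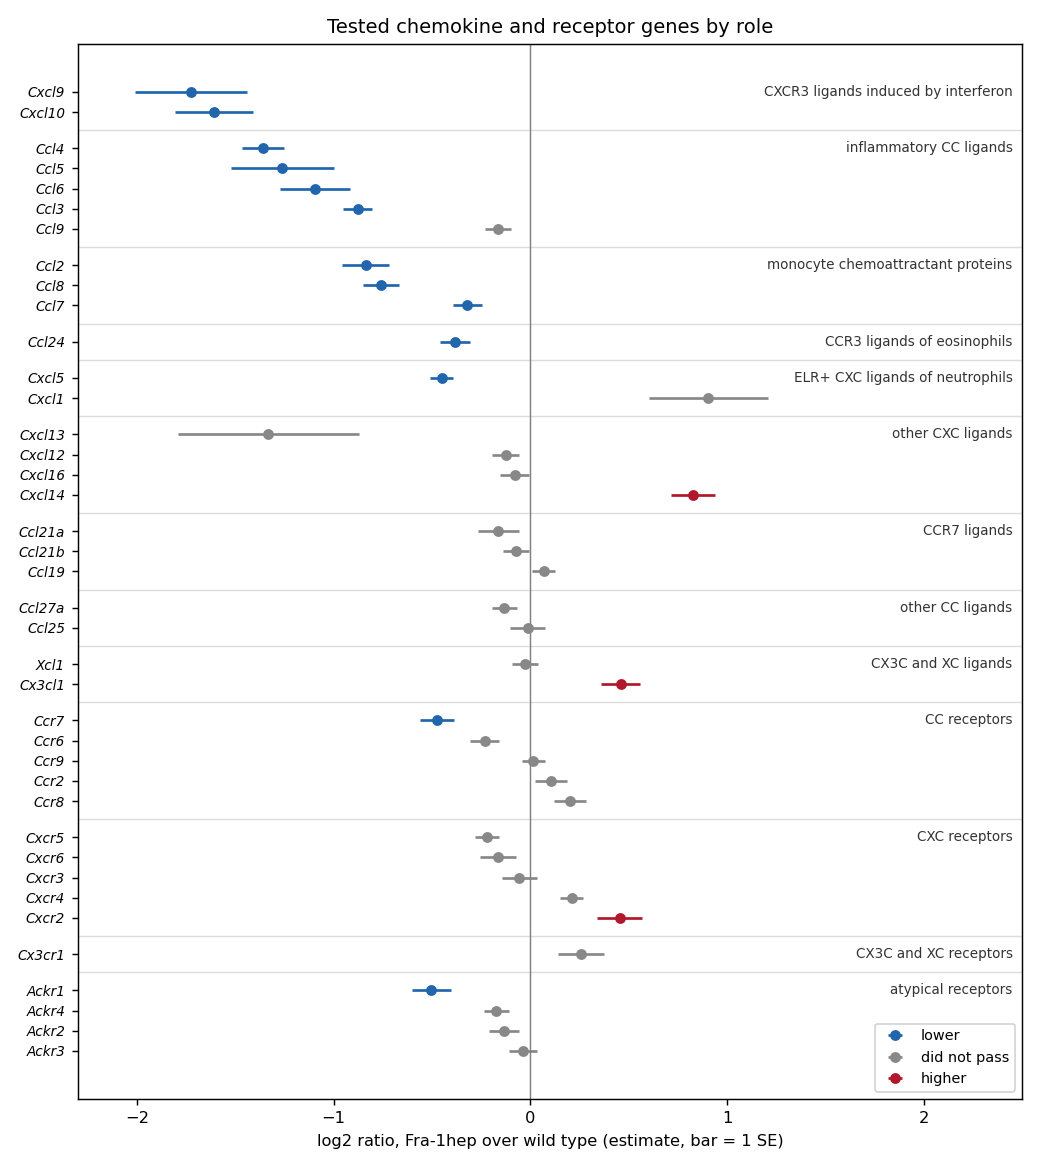
Estimated log2 ratio of Fra-1hep over wild type (x axis, bar of 1 SE, n = 4) for 39 tested chemokine and receptor genes (y axis), grouped by role and coloured by whether the gene passed the test. The inflammatory CC ligands and the CXCR3 ligands lie to the left of 0, down to -1.72 for Cxcl9, and the 3 higher genes Cxcl14, Cx3cl1 and Cxcr2 lie between 0.45 and 0.83.

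Of the neutrophil-directed genes, Cxcl5 was lower and Cxcr2 higher, and Cxcl1 did not pass. Cxcl5 and Cxcr2 were dim in both channels, with 1 channel of each mostly or wholly not above background. Mean log2 levels in Fra-1hep and wild type were 6.31 and 6.77 for Cxcl5, and 6.55 and 6.09 for Cxcr2. Cxcl1, the KC chemokine that draws neutrophils through CXCR2, was at -0.06 in mouse 1 and at 1.25, 1.26, 1.07 and 2.01 in mice 2 to 5, with 0.74 on the dye-swapped array. Mouse 1 thus stood apart from the other mice, and the gene did not pass (0.90, SE 0.30, n = 4, limma adjusted p = 0.102). Over the 19 alternatives its estimate ran from 0.75 to 1.09 and its adjusted p from 0.00058 to 0.333. It passed without mouse 1 (1.09, adjusted p = 0.0115) and within slide 2, which lacks mouse 1 (0.95, adjusted p = 0.00058). The fit within slide 2 rests on mice 3 and 4 and the dye-swapped array, with 1 residual degree of freedom, and also lacks mouse 5. Cxcl1 also passed without the dye term (1.00, adjusted p = 0.0133) and with the mouse arrays alone (1.07, adjusted p = 0.0241). Cxcl5, another ligand with the glutamate-leucine-arginine motif, fell by 0.45 (SE 0.06, adjusted p = 0.00346), at -0.47, -0.47, -0.33, -0.32 and -0.34 in mice 1 to 5 and -0.52 on the dye-swapped array. Cxcl5 passed the background limit in 1 of 6 Fra-1hep and 6 of 6 wild-type readings and was tested only through the wild-type channel, where it is high, so the size of its ratio is not well measured and its call is no independent support. Cxcl2 was above background on 1 array of the Fra-1hep channel, and Cxcl3 and Cxcl15 on none, so these ligands have no measured ratio.

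Cxcr2, the receptor by which neutrophils read these ligands, was higher on all 6 arrays, at 0.14, 0.48, 0.40, 0.80 and 0.27 in mice 1 to 5 and 0.50 on the dye-swapped array. It passed the background limit in 5 of 6 Fra-1hep and 0 of 6 wild-type readings (mean normalised levels 6.55 and 6.09 on the log2 scale). The Fra-1hep mean stood 1.23-fold above the lowest signals above background. This value carries no sampling error and is no lower limit for single mice. Its log2 ratio passed the test against 0 (limma adjusted p = 0.0403). Cxcr2 was tested only through the Fra-1hep channel, where it is high, so this call is no independent support. The call ended without mouse 5 (adjusted p = 0.0520) and without mice 2 and 3 together (0.0824). Of 10 neutrophil markers measured, 8 rose and 0 fell, led by the calprotectin genes S100a9 (3.53, SE 0.40) and S100a8 (3.48, SE 0.41) and the granule genes Mpo (3.48, SE 0.56) and Camp (3.36, SE 0.47). Their median log2 ratio was 1.02, 2.66, 2.63, 3.06 and 1.22 in mice 1 to 5, with mice 1 and 5 lowest, as for Cxcr2. Their summed processed signal was 41500 to 87100 in the Fra-1hep mice and 28500 to 38400 in wild type on the same arrays, and 0 of the 10 markers was below background on all arrays. Csf3r was the brightest marker in both channels (mean log2 levels 14.69 in Fra-1hep and 14.59 in wild type). It did not pass (0.09, SE 0.06, limma adjusted p = 0.350) and weighs heavily in this sum, so the sum is no measure of neutrophil amount. The part of neutrophil number in the Cxcr2 ratio was not tested.

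Of the other CXC ligands, Cxcl14 rose. This chemokine, known for expression in epithelia, was at 0.70, 0.86, 1.01, 1.36 and 1.02 in mice 1 to 5 and at 0.65 on the dye-swapped array. All 6 arrays were above 0, and the estimate was 0.83 (SE 0.11, n = 4, limma adjusted p = 0.00356), a 1.77-fold higher level. The processed signals of Cxcl14 ran from 722 to 1206 in the Fra-1hep mice and from 340 to 469 in wild type on the same arrays. Cxcl13, which calls B cells through CXCR5, had the widest spread of all 40 genes, with -2.67, -2.29, -2.55, 0.17 and -1.22 in mice 1 to 5 and -1.13 on the dye-swapped array. Mice 1, 2 and 3, of which the last pair counts as 1 sample, were lowest, mouse 4 was above 0, and it did not pass (-1.33, SE 0.46, adjusted p = 0.109). Over the alternatives its estimate ran from -1.62 to -1.14 and its adjusted p from 0.00960, without mouse 4, to 0.355, and it also passed without the dye term (0.0153) and with the mouse arrays alone (0.0290). Its receptor Cxcr5 did not pass (-0.22, SE 0.06, adjusted p = 0.0617).

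Cxcl12, the homeostatic ligand of CXCR4 that holds cells in marrow and liver niches, did not pass (-0.13, SE 0.07, adjusted p = 0.285), with mice between -0.19 and 0.09. A probe for another Cxcl12 transcript (NM_021704) read 0.19 (adjusted p = 0.137), so the probes differed in sign and neither passed. Cxcr4 did not pass (0.21, SE 0.06, adjusted p = 0.0592), and it was above background on 5 of 6 arrays in Fra-1hep and 1 of 6 in wild type. Cxcl16, which retains CXCR6-bearing NKT cells in the sinusoids, was at -0.08 (SE 0.07, adjusted p = 0.528), and Cxcr6 at -0.16 (SE 0.09, adjusted p = 0.298). Cxcr6 was lower in all 5 mice, from -0.69 to -0.17, and at 0.06 on the dye-swapped array.

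Cx3cl1, or fractalkine, a membrane-bound chemokine that tethers monocytes, rose by 0.46 (SE 0.10, n = 4, limma adjusted p = 0.0252). Its log2 ratios were 0.16, 0.70, 0.80, 0.40 and 0.41 in mice 1 to 5 and 0.49 on the dye-swapped array, all above 0. Its receptor Cx3cr1, on monocytes and part of the hepatic macrophages, was at 0.35, 0.80, 0.65, 0.02 and 0.30 in the mice and 0.16 on the dye-swapped array. All these values were above 0, but Cx3cr1 did not pass (0.26, SE 0.12, adjusted p = 0.208). Xcl1, the lymphotactin of NK and T cells, did not pass (-0.03, SE 0.07, adjusted p = 0.825), and its receptor Xcr1 was not above background on any array.

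**Figure D3:**
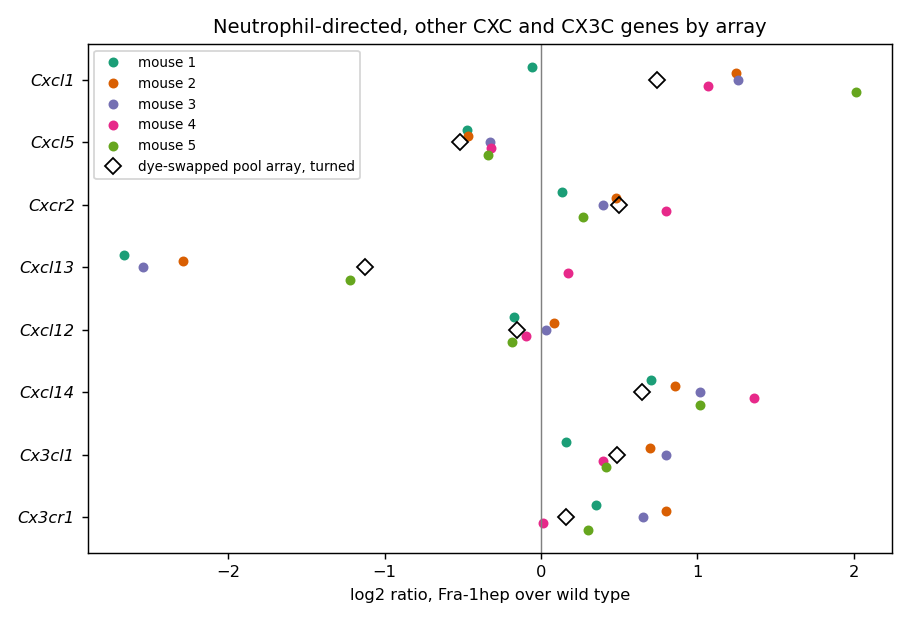
Log2 ratio of Fra-1hep over wild type (x axis) for 8 ligands and receptors with mixed directions (y axis), with a filled point for each single-mouse array and an open diamond for the dye-swapped pool array, turned. Cxcl1 lies at -0.06 in mouse 1 and at 1.07 to 2.01 in the other mice, and Cxcl13 at 0.17 in mouse 4 and at -2.67 to -1.22 in the other mice.

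Homeostatic CC ligands did not pass at the brightest probe of any tested gene. The CCR7 ligands Ccl19 (0.07, SE 0.06, adjusted p = 0.535), Ccl21a (-0.16, SE 0.10, adjusted p = 0.363) and Ccl21b (-0.07, SE 0.07, adjusted p = 0.535) guide dendritic cells and naive T cells. Ccl21a and Ccl21b are near-identical copies, so each may read RNA of the other, and their values are uncertain. Ccl25 (-0.01, adjusted p = 0.947) and Ccl27a (-0.13, adjusted p = 0.237) did not pass either. Of the 3 dimmer Ccl27a probes, 1 (for NM_001164045) passed over all probes tested (-0.22, adjusted p = 0.0464), and the others read -0.22 (0.0589) and -0.11 (0.297). For Ccl25 all but mouse 2 were above 0, while the dye-swapped array was at -0.28. Ccl1, Ccl20, Ccl22 and Ccl28 stayed below the background limit throughout, and Ccl17 passed it on 1 array in each channel.

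Ccr7 itself fell, by 0.48 on the log2 scale (SE 0.08, n = 4, limma adjusted p = 0.0113). Its log2 ratios were -0.38, -0.39, -0.44, -0.52 and -0.09 in mice 1 to 5 and -0.60 on the dye-swapped array, so mouse 5 was close to 0. Of the other CC receptors, Ccr6 (-0.23, adjusted p = 0.0868), Ccr8 (0.20, adjusted p = 0.162) and Ccr9 (0.01, adjusted p = 0.909) did not pass. Ccr4, Ccr10 and Ccr1l1 were not above background on any array, and Cxcr1 only on 2 arrays of the Fra-1hep channel.

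Atypical receptors bind chemokines without G protein signalling and so remove or transport them. Ackr1, which carries inflammatory chemokines on endothelium and red cells, fell by 0.50 (SE 0.10, n = 4, limma adjusted p = 0.0166). It was at -0.37, -0.50, -0.40, -0.68 and -0.11 in mice 1 to 5 and at -0.60 on the dye-swapped array, all below 0. The scavenger of inflammatory CC chemokines Ackr2 (-0.13, adjusted p = 0.312), the CXCL12 scavenger Ackr3 (-0.04, adjusted p = 0.794) and the CCL19 and CCL21 scavenger Ackr4 (-0.17, adjusted p = 0.131) did not pass.

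The offset of 50 added to each signal draws the ratios of dim genes towards 0. In the authors' processed log ratios, taken as given, 9 genes were lower and 2 higher, against 6.77% of all genes tested, and all 11 were among the 17. There Ccl3 was at -2.08, Ccl4 at -2.12, and Ccl8 at -1.42, each past the threshold and, for Ccl3 and Ccl4, further from 0 than Cxcl9 and Cxcl10 (-1.83). Cxcl5 (-2.25) and Cxcr2 (2.43) were called there too, against a channel mostly or wholly not above background, so these values are no measured folds. Ccl7 (-1.28, adjusted p = 0.131), Ackr1 (-0.85, 0.0697), Ccl5 (-1.32, 0.0885), Cxcl9 (-1.86, 0.0592), Ccl24 (-0.52, 0.0792) and Cx3cl1 (0.64, 0.0701) did not pass there.

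Other genes of chemokine induction and signalling were read from lists of known pathway members. Among all genes tested 6.51% were lower and 5.97% higher, and these short lists were not tested as sets. Of 8 tested cytokines that induce chemokines 2 were lower and 0 higher, namely Tnf (-0.31, SE 0.06, limma adjusted p = 0.0218) and the lymphotoxin subunit Ltb (-0.29, SE 0.06, adjusted p = 0.0146). Ltb lay between -0.12 and -0.04 in the mice and at -0.51 on the dye-swapped array. Its estimate thus rests mostly on that 1 array, whose own error is not estimated. Of 14 tested NF-kB and interferon pathway factors 6 were lower and 0 higher, with Relb (-0.44, SE 0.09), Irf7 (-0.43, SE 0.06), Irf1 (-0.43, SE 0.08) and Irf9 (-0.39, SE 0.06) furthest from 0. IRF1 and IRF9 act in the response to interferons, RELB is an NF-kB subunit, and IRF7 is a driver of type I interferon genes. Of 22 tested genes of receptor signalling in leukocytes 5 were lower and 1 higher. The Src-family kinase Fgr (-0.63, SE 0.08) and the small GTPase Rac2 (-0.55, SE 0.10) were lower, and Rgs2, a brake on G protein signalling, was higher (1.49, SE 0.33). Of 11 tested chemoattractants and receptors with other names 2 were higher and 2 lower. The platelet chemokine Pf4 (0.67, SE 0.13) and the leukotriene B4 receptor Ltb4r1 (0.57, SE 0.10) rose, and Fpr2 (-0.62, SE 0.16), a formyl peptide receptor, and S1pr1 (-0.45, SE 0.08), a sphingosine 1-phosphate receptor, fell.

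Markers of cells that make or follow chemokines were read from lists as well, again short and not tested as sets. The shares over all genes tested were 6.51% lower and 5.97% higher. Of 9 Kupffer cell markers 8 were lower, led by Folr2 (-0.81, SE 0.13), Cd5l (-0.75, SE 0.16), Timd4 (-0.67, SE 0.15) and Clec4f (-0.61, SE 0.10), and the median of the list was -1.08 to -0.41 in the mice. Their summed processed signal was 41000 to 70600 in Fra-1hep mice and 79300 to 114000 in wild type on the same arrays. Marco, the brightest of these markers in wild type, weighs heavily in this sum. It had the largest change, with mice from -2.84 to -0.06, but did not pass (-1.33, SE 0.43, limma adjusted p = 0.0880). Of 13 tested T and NK cell markers 7 were lower, led by Gzma (-1.50, SE 0.25), with list medians of -0.34 to -0.13 and summed signals of 5570 to 8610 against 6390 to 9080. Cd4, the brightest of these markers in both channels, did not pass (-0.16, limma adjusted p = 0.130) and weighs heavily in the sum. Ncr1, an NK receptor, was not above background on any array. Of 10 endothelial markers 8 were lower, led by Clec4g (-0.95, SE 0.15), with list medians of -0.68 to -0.21 and summed signals of 19000 to 22000 against 27600 to 36300. Of 7 monocyte markers 1 was lower and 1 higher, of 5 tested dendritic cell markers 2 were lower, and of 5 tested B cell markers 2 were lower. Of 8 hepatocyte markers 2 were lower, of 7 cholangiocyte markers 3 were higher, of 10 stellate cell markers 1 was higher and 1 lower, and of 6 platelet markers 1 was higher, namely Pf4. Ccr2, Ccr7, Xcr1 and Cxcr6 are themselves on these lists. For the Kupffer and endothelial lists 0 genes were below background on all arrays. The part of the amount of these cells in the chemokine ratios was not tested.

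**Figure D4:**
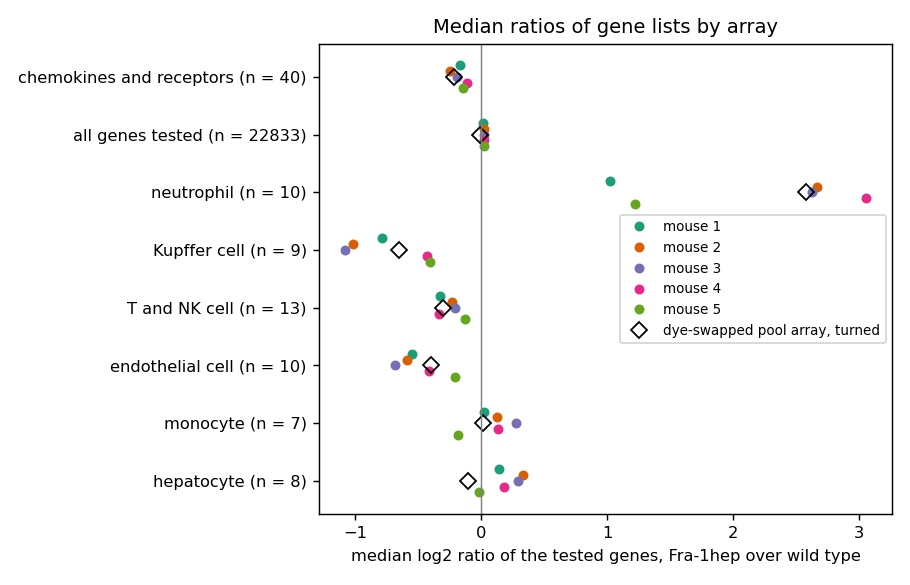
Median log2 ratio of Fra-1hep over wild type (x axis) over the tested genes of each list (y axis, number of genes in brackets), with a filled point for each single-mouse array and an open diamond for the dye-swapped pool array, turned. The chemokine and receptor median lies between -0.25 and -0.11 in the mice, the Kupffer cell median between -1.08 and -0.41 and the neutrophil median between 1.02 and 3.06.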

How the data were processed

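Scanner files held each spot's median red and green intensity, deposited by the authors as written by Agilent Feature Extraction 10.7.3.1, per the file headers. Processed intensity (background-subtracted and dye-normalised) and its log10 ratio come from the same software, per the file headers. The deposited series table holds log2 ratios, which match the scanner files' log10 ratios once converted, with the dye-swapped array already turned and without centring.

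Here, median signals were background-corrected with normexp (offset 50) and loess-normalised within each array in limma 3.58.1 (R 4.3.3), with control spots and outlier-flagged spots given no weight, and flagged spots (190 to 301 an array) left out. Replicate spots were averaged. Probes were named through RefSeq accessions. Genes were fitted on all 22833 tested genes with a genotype term and a dye constant (3 residual and 4.67 prior degrees of freedom), Benjamini-Hochberg adjustment and a two-sided threshold of 0.05. The fit was tested on simulated data. Processed signals are printed as deposited. The number of arrays limits the precision.

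The genes and lists were chosen with earlier results of these data known. Any chemokine or receptor gene could be named. Of each pathway or marker list, at most the 4 called genes with the largest change were named. Csf3r, Marco, Cd4 and Ncr1 are named besides these, as limits of their lists. The series' design text counts 6 individual mice; grouping followed the labels of the samples, which name 5 and 1 array of pools. Some genes that count among those tested are not reported by name here. Alternatives varied the normalisation, offset, filter, variance model, dye term, slide, probe choice and mice.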

Additional observations from a re-analysis of the deposited data

Results flagged for a closer look

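Each of the 40 tested chemokine and receptor genes was checked for a Fra-1hep sample that stands far from the others, and 1 was found. For Cxcr5, the B cell receptor of CXCL13, the mean of mice 2 and 3 was -0.27, while the other 3 mice lay between -0.10 and -0.09 on the log2 scale. The limit was Dixon's 95% critical value for 4 samples, which chance passes in about 1 in 20 groups.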

How the results depend on the processing

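No paired analysis was possible because wild type is 1 pool, so the groups share fewer than 2 replicate numbers. Ratios were taken within arrays, and with slide as a block 15 genes were lower and 4 higher. Of all genes 1792 were then lower and 1641 higher (15% called). Under 19 alternatives, 8 of the 17 called genes were called in each, Ccl3 and Cxcl5 were called wherever tested (not under the strict background filter), and 7 lost the call at least once. With the deposited processed log ratios 11 genes were called, 9 of them lower, and 1545 of all genes; with the series' value table these were 11, 9 and 1542. Without the dye term 5 genes were higher, 17 lower and 4786 of all genes called, and with the mouse arrays alone 5, 18 and 6098. The median of the genes was -0.038 with median centring (all genes tested then had a median of 0.084) and -0.074 without the filter on dim probes. Leaving out a mouse, or mice 2 and 3 together, gave 15 to 17 called genes, 2 to 4 higher and 13 to 14 lower, 2090 to 2718 of all genes, and medians of -0.16 to -0.15. Genes that did not pass changed sign as follows: with median centring Ccl21b (0.069), Ccl25 (0.096), Cxcl12 (0.034) and Cxcl16 (0.014); with the processed log ratios and the series table Ccl25 (0.0012) and Ccr9 (-0.015); without the dye term Ccl25 (0.15); with mouse arrays alone Ccl25 (0.26) and Ccl27a (0.064); with the mean of probes Cxcl12 (0.029); and without mice 2 and 3 Ccl25 (0.028) and Ccr9 (-0.0025). The cause was not tested. With offset 10, Cxcl5 was at -0.84, Ccl3 at -1.35, Ccl7 at -0.58 and Cxcr2 at 0.98, Cxcl5 and Cxcr2 against a channel mostly or wholly at background. Cxcr4 (adjusted p = 0.0383) and Cxcr5 (0.0370) passed with 5 separate mouse arrays in limma, and each passed in 4 of the 19 alternatives. Ccr6 passed in 3 (lowest limma adjusted p = 0.0152), Cxcr6 in 2 (0.0115), Cx3cr1 in 2 (0.0407) and Xcl1 in 1 (0.0271). Cxcl1 passed in 4 and Cxcl13 in 3, as described above. Signal over background limits the 19 untested genes, whose ratios carry no order.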
